A study of Avena sativa with 6 samples.

Results

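The genes described here encode the light-harvesting antenna proteins of the chloroplast, which bind chlorophyll and pass absorbed light energy to the photosystems. They were taken as every row of the deposited oat expression table whose KEGG pathway text names the antenna proteins of photosynthesis, and 93 of 136488 genes met that rule. The rule reads that text alone and uses no expression value, though it was picked with earlier results of these data known. The KEGG text divides the 93 genes into 13 types. LHCA1 to LHCA5 belong to photosystem I, and LHCB1 and LHCB3 to LHCB7 belong to photosystem II. A further 20 genes carry a text that joins LHCB1 and LHCB2, and no gene carries LHCB2 alone. The last 2 loci carry a text that joins LHCA3 with 2 unrelated proteins, and they are kept apart below as joint LHCA3 loci. Gene names are given without the shared start AVESA.00010b.r2., and the letter A, C or D after the first digit names the subgenome of this hexaploid cereal.

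RNA was measured in peeled grains of the high-oil oat cultivar BY9 (Baiyan No.9). The study compared 3 libraries of grains from ears that were shaded for 4 days after flowering with 3 libraries of grains from ears left unshaded. Both groups are of the same cultivar, and the labels describe no other treatment or genotype. Whether the 3 libraries of each group go back to different plants is not stated in the labels, and the spread behind every p-value here may therefore be technical. Values are FPKM, that is fragments scaled to gene length and to the fragments of the library, so levels of different genes can be set beside each other.

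Antenna proteins are made in the cytosol from nuclear genes, imported into the chloroplast and inserted with their pigments into the thylakoid membrane. LHCB1, LHCB2 and LHCB3 form the trimers of the main antenna of photosystem II, while LHCB4, LHCB5 and LHCB6 are monomers that join these trimers to the core. LHCA1 to LHCA4 form a belt of dimers beside photosystem I. In leaves these transcripts are among the most abundant of the nucleus, and in young cereal grains green cells lie mainly in the pericarp.

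The libraries summed to between 493004.4 and 561771.7 FPKM, and the number of reads behind them is unknown. Between 50016 and 54521 genes stood at 1 FPKM or more in unshaded libraries and between 57613 and 60606 in shaded ones. In the first principal component, which held 86.1% of the variance, unshaded replicate 3 and shaded replicate 3 lay nearest to the other group. Lists of markers were read from the annotation text to describe what the grains held. Starchy endosperm markers (103 genes) summed to 18925.6 to 38417.1 FPKM in unshaded and 6074.4 to 9517.9 FPKM in shaded libraries, with 1 of 88 tested genes higher and 70 lower. Embryo and aleurone markers (211 genes) ranged from 581 to 918 and from 1317.2 to 1557.4 FPKM, with 54 of 91 tested genes higher and 20 lower. Markers of green tissue other than the antenna (39 genes for the Rubisco small subunit, Rubisco activase, the plastid dehydrogenase GAPA and phosphoribulokinase) ranged from 14.3 to 29.6 and from 841 to 1145.3 FPKM, with 35 of 35 tested genes higher. Surface lipid genes (107) ranged from 126 to 360 and from 447 to 503 FPKM, with 29 of 43 tested genes higher and 0 lower, or 19 of 41 and 0 with median-of-ratios scaling. Tested genes are those that averaged 1 FPKM or more over the 6 libraries, and of all of them 42.4% were higher and 21.5% lower. With median-of-ratios scaling these shares were 27.1% and 32.1%. The green tissue genes were low in unshaded grains, so many may have been tested only through their shaded values, and their count supports nothing beyond them. No gene of these lists was at 0 in all 6 libraries. Their part in the values of the antenna genes was not tested, and in bulk grains more cells of a type and more RNA per cell cannot be told apart.

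Antenna transcripts were scarce in grains of unshaded ears and far more abundant in grains of shaded ears. Their summed level was 15.7, 19.3 and 23.7 FPKM in unshaded libraries and 732, 710 and 586 FPKM in shaded libraries. The groups lay far apart, with means of 19.6 ± 3.99 and 676 ± 78.6 FPKM (SD, n = 3 each), a ratio of 34.6. As a share of all FPKM, the antenna genes took 0.00285%, 0.00343% and 0.00446% of the unshaded and 0.148%, 0.144% and 0.115% of the shaded libraries. Replicate 3 of each group lay nearest to the other group, with the highest sum among unshaded and the lowest among shaded libraries. Shaded replicate 3 had 0.813 times the mean sum of shaded replicates 1 and 2.

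Each gene was tested across the whole table with limma on log2(FPKM + 1), with p-values adjusted over all genes tested. In the fit over all 136488 genes, 59 of the 93 antenna genes rose, 0 fell and 34 did not pass, where 28.4% of all genes rose and 12.8% fell. No antenna gene was lower even at an unadjusted p under 0.05. In the fit restricted to genes that averaged 1 FPKM or more over the 6 libraries, 42 antenna genes were tested, of which 41 rose and 1 did not pass, where 42.4% of all genes tested rose and 21.5% fell. Of these 42 genes, 37 were under 1 FPKM in every unshaded library and so entered that fit only through their shaded values, which leaves their direction no choice. For the same reason, the 41 genes with a log2 fold change of at least 1 (16.3% of all genes tested), the 38 with a ratio of mean FPKM of at least 10 (2.77%), the 25 with a called log2 fold change of at least 3 (0.688%) and the 41 with wholly separate groups and shaded values above (46.2%, and 24.0% with shaded values below) describe these 42 genes and support nothing beyond that. The lowest mean over the 6 libraries inside the restriction was 1.14 FPKM and the highest outside it was 0.805 FPKM. All log2 fold changes and adjusted p-values below come from the restricted fit unless said otherwise, and since 1 FPKM is added they understate the change of low genes. With no filter the median log2 fold change was 0.86 over the 93 antenna genes and 0.06 over all genes, while in the restricted fit it was 3.35 over the 42 antenna genes and 0.26 over all 58283 genes tested, the former being subject to the same limit.

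Gene by gene, the groups were separate in most but not all antenna genes. In 62 of the 93 antenna genes every shaded value lay above every unshaded value, which was so for 35.4% of all genes, and in 0 it lay below. All 3 unshaded libraries were listed at 0 for 28 antenna genes and all 3 shaded libraries for 3. In the authors' deposited table, 50 of the 93 genes are marked up and 0 down, against 13.4% and 12.9% of all genes.

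**Figure D1:**
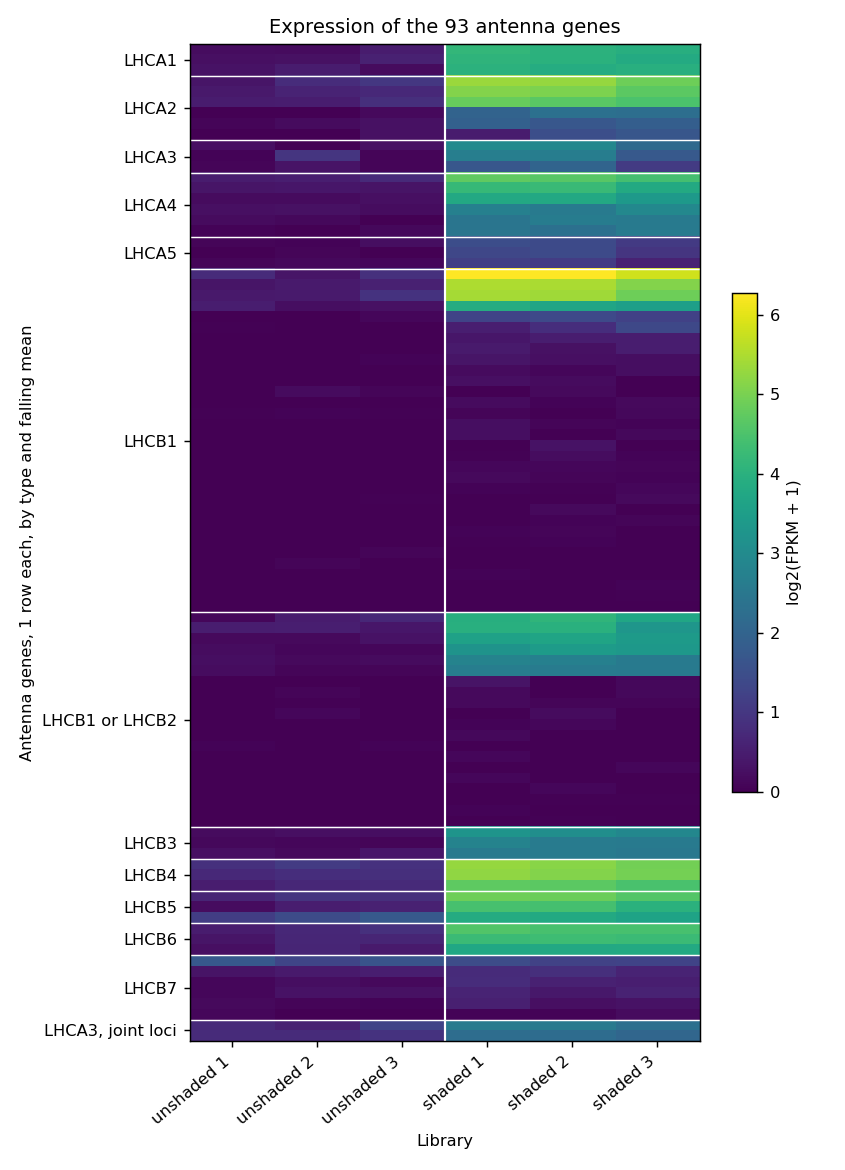
Expression of the 93 antenna genes as log2(FPKM + 1) in each of the 6 libraries, 1 row per gene, grouped by type and ordered by falling mean within a type. The 3 unshaded columns are dark in nearly every row, and the shaded columns are brighter in all types except LHCB7, only slightly in LHCA5, and in only the first rows of LHCB1 and of LHCB1 or LHCB2.

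LHCB1 is the major protein of the light-harvesting trimers of photosystem II, and it had the highest summed level of any antenna type in shaded grains. The 32 genes with LHCB1 text summed to 1.84, 1.43 and 2.73 FPKM in unshaded and 180, 176 and 134 FPKM in shaded libraries, a ratio of 81.6. Most of this sum came from 3 genes, with 1 on each subgenome. The C gene 5CG0875470 was at 0.718, 0.288 and 0.813 FPKM in unshaded and 76.1, 75.4 and 55.8 FPKM in shaded grains, the highest level of any antenna gene. The D gene 5DG0950730 was at 0.286, 0.376 and 0.488 FPKM and then at 44.5, 43.6 and 33.7 FPKM, and its log2 fold change was 4.90 ± 0.14 (SE; limma adjusted p = 4.17e-06). The A gene 5AG0858890 went from 0.355, 0.366 and 0.883 FPKM to 41.7, 40.6 and 28.7 FPKM, a rise of 4.63 on the log2 scale (SE 0.19, limma adjusted p = 6.84e-06). In all 3 genes the groups were wholly apart, and shaded replicate 3 was the lowest of the shaded libraries. A second C gene, 5CG0927060, stood lower in shaded grains at 13.8, 11.8 and 10.6 FPKM and rose by 3.36 on the log2 scale (SE 0.14, limma adjusted p = 6.74e-06).

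The 20 genes whose text joins LHCB1 and LHCB2 could belong to either protein. They summed to 1.34 ± 0.178 FPKM in unshaded and 58.0 ± 7.29 FPKM in shaded grains, a ratio of 43.4. Leading among them were 3AG0424120, 3DG0524780 and 3CG0490110, again with 1 gene on each subgenome. The A gene 3AG0424120 was at 0.0745, 0.394 and 0.629 FPKM and then at 14.2, 16.3 and 12.1 FPKM, 38.9-fold in means and 60.7-fold without unshaded replicate 3. The D gene 3DG0524780 was at 0.408, 0.438 and 0.307 FPKM and then at 14.6, 14.9 and 8.87 FPKM. The C gene 3CG0490110 was at 0.116, 0.122 and 0.246 FPKM and then at 11, 11.6 and 9.61 FPKM. All 3 rose, with log2 fold changes of 3.49, 3.29 and 3.34 and limma adjusted p-values from 5.39e-06 to 2.28e-05. The other 3 tested genes of the type, 1AG0004130, 1AG0035770 and 1DG0154870, rose as well, with log2 fold changes of 3.19, 2.5 and 2.49 and shaded means of 9.08, 5.49 and 5.12 FPKM. The ratio of 56.1 in means for 1DG0154870 was 93.8 without unshaded replicate 1.

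LHCB3, the least abundant partner in the trimers, had 3 genes that all rose. Their sum was 0.451 ± 0.0834 FPKM in unshaded and 17.8 ± 1.70 FPKM in shaded grains, a ratio of 39.5. The A gene 6AG1052060 led with 8.52, 7.56 and 6.52 FPKM in shaded libraries after 0.143, 0.193 and 0.183 FPKM in unshaded ones. The D gene 2DG0352520 and the C gene 2CG0272880 reached shaded means of 5.35 ± 0.592 and 4.94 ± 0.179 FPKM, the D gene being the higher in each shaded library. Limma adjusted p-values of the 3 genes ran from 7.79e-06 to 1.25e-05.

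The monomeric antennas LHCB4, LHCB5 and LHCB6 had 3 genes each, with 1 on each subgenome, and all 9 rose. LHCB4 summed to 2.25 ± 0.330 and 90.8 ± 9.57 FPKM, a ratio of 40.3. Its A gene 6AG1051770 was at 0.662, 0.765 and 0.804 FPKM and then at 36.7, 33.3 and 29.9 FPKM, a rise of 4.29 on the log2 scale (SE 0.12, limma adjusted p = 4.17e-06). Its C gene 2CG0273240 was at 0.820, 1.14 and 0.867 FPKM and then at 37.5, 34.7 and 29.5 FPKM, so the A and C genes of LHCB4 were level in shaded grains. Its D gene 2DG0352270 stayed below both at 25.1, 24.6 and 21.0 FPKM in shaded grains, a rise of 3.97 on the log2 scale (SE 0.13, limma adjusted p = 5.02e-06).

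LHCB6, which links the trimers to LHCB4 in land plants, was the type with the most even shaded libraries. It summed to 0.876, 1.79 and 1.78 FPKM in unshaded and to 53.1, 52.5 and 51.9 FPKM in shaded libraries, a ratio of 35.5. Shaded replicate 3 had 0.984 times the mean of shaded replicates 1 and 2 here, against 0.752 times for LHCB1. The A gene 2AG0224600 was at 0.391, 0.620 and 0.838 FPKM and then at 22.7, 20.7 and 20.7 FPKM, a rise of 3.80 on the log2 scale (SE 0.13, limma adjusted p = 5.12e-06). The D gene 2DG0378760 and the C gene 2CG0303970 had shaded means of 18.6 ± 0.459 and 12.6 ± 0.385 FPKM and log2 fold changes of 3.72 and 3.32.

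LHCB5 differed from the other monomers in that its 3 genes did not move by similar ratios. The D gene 4DG0737900 was at 0.570, 0.909 and 0.788 FPKM and then at 28.8, 28.3 and 23.2 FPKM, a ratio of 35.4 in means. The A gene 4AG0593800 was at 0.148, 0.406 and 0.480 FPKM and then at 20.7, 20.5 and 15 FPKM, a ratio of 54.4. The C gene 7CG0688910 was at 1.2, 1.69 and 2.36 FPKM and then at 13.4, 13.1 and 11.4 FPKM, a ratio of 7.21. The C gene was thus the highest LHCB5 copy in every unshaded library and the lowest in every shaded one. Its ratio stayed between 6.23 and 8.73 when any library was left out, and that of the A gene between 42.3 and 67.7. Log2 fold changes were 3.98, 3.87 and 2.33 for the D, A and C genes, with limma adjusted p-values of 5.02e-06, 7.14e-06 and 4.46e-05, and the difference between the copies was not tested. The 3 gene models differ in length, at 1380, 858 and 2222 bases, and FPKM are divided by that length.

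LHCB7, a rarely studied relative of the other LHCB proteins, was the type with the smallest ratio between the groups. Its 6 genes summed to 2.92, 2.34 and 2.89 FPKM in unshaded and 4.22, 3.19 and 3.26 FPKM in shaded libraries, a ratio of 1.31. Most of the unshaded level came from MSTRG.1625, a locus outside the AVESA gene set and so without a subgenome letter. It was at 2.33, 1.5 and 2.07 FPKM in unshaded and 1.73, 1.34 and 1.40 FPKM in shaded libraries, and the groups overlap. Its log2 fold change was -0.25 ± 0.14 (SE; limma adjusted p = 0.165), the only one of the 42 that did not pass. Where libraries were brought to a common scale by median of ratios or by quantiles, it passed as lower, at -0.49 and -0.51 (limma adjusted p = 0.0177 and 0.0136).

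The other 5 LHCB7 genes were all under 1 FPKM in every library. The chromosome 5 set 5AG0839270, 5CG0895110 and 5DG0970580 had means of 0.517, 0.340 and 0.314 FPKM over the 6 libraries. In each of these and in 2AG0197820 every shaded value lay above every unshaded value. These 4 passed as higher in the fit over all genes, with limma adjusted p-values from 0.00696 to 0.0497, while 2DG0350820 did not. Counting MSTRG.1625 alone, the LHCB7 ratio was 0.757, so the direction of the type's sum rests on these low genes. It also depends on scaling. Median-of-ratios factors were 0.837, 0.842 and 0.978 for unshaded and 1.18, 1.18 and 1.12 for shaded libraries, a gap about as large as the type's ratio.

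**Figure D2:**
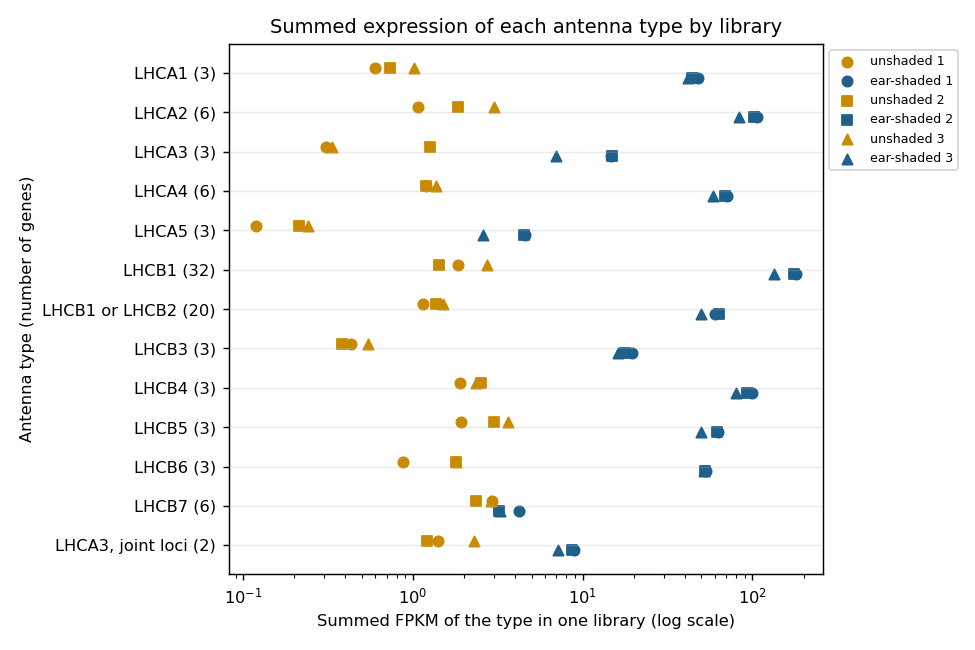
Summed FPKM of each antenna type in each library on a log scale, with the number of genes of the type in brackets, unshaded libraries in orange and shaded libraries in blue. In all 13 types the 3 shaded libraries lie above the 3 unshaded ones in FPKM as deposited, by the least in LHCB7.

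Among the photosystem I types, LHCA1 and LHCA4 form one dimer of the antenna belt. LHCA1 had 3 genes, on 2D, 7A and 7D by their names and none on the C subgenome, and all 3 rose. They summed to 0.596, 0.736 and 1.02 FPKM in unshaded and 48.0, 44.1 and 42.0 FPKM in shaded libraries, a ratio of 57.0. The 3 genes were nearly level in shaded grains, at 15.4 ± 1.21 (2DG0398800), 14.8 ± 1.33 (7AG1214950) and 14.5 ± 0.844 FPKM (7DG1393110), with each gene's libraries overlapping those of the other 2. Their log2 fold changes of 3.74, 3.6 and 3.63 had limma adjusted p-values of 5.02e-06, 5.39e-06 and 5.02e-06. For 2DG0398800 the ratio of 67.7 in means was 105.0 without unshaded replicate 3.

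LHCA4 had 6 genes, in a set on chromosome 7 and a set on chromosome 5 by their names, and all 6 rose. The type summed to 1.19, 1.19 and 1.36 FPKM in unshaded and 70.6, 68.6 and 58.6 FPKM in shaded libraries, a ratio of 52.9. The chromosome 7 set held most of it, led by 7CG0661620 at 0.394, 0.452 and 0.677 FPKM and then 25.9, 23.8 and 20.1 FPKM (log2 fold change 4.00, SE 0.14, limma adjusted p = 5.02e-06). Next came 7DG1381090 and 7AG1226890, with shaded means of 16.1 ± 2.79 and 11.6 ± 1.97 FPKM and log2 fold changes of 3.73 and 3.44. The chromosome 5 set stood between 4.41 and 5.72 FPKM in the mean of shaded grains. Unlike the chromosome 7 set, its genes 5AG0844190 and 5DG0965600 had their highest shaded value in replicate 3, at 6.54 and 4.85 FPKM.

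LHCA2 and LHCA3 form the other dimer of the belt. LHCA2 was the second highest type in shaded grains, at 106, 102 and 83.8 FPKM after 1.07, 1.83 and 3.02 FPKM in unshaded grains, a ratio of 49.2. Its 3 leading genes were 2DG0354340, 6AG1053630 and 2CG0271120. The D gene 2DG0354340 was at 0.288, 0.730 and 1.02 FPKM and then at 39.3, 37.8 and 28.7 FPKM, a rise of 4.44 on the log2 scale (SE 0.20, limma adjusted p = 8.74e-06). The A gene 6AG1053630 was at 0.344, 0.546 and 0.659 FPKM and then at 33.2, 31.6 and 25 FPKM, with a log2 fold change of 4.34. The C gene 2CG0271120 was at 0.383, 0.417 and 0.791 FPKM and then at 26.9, 24.2 and 21.6 FPKM, with a log2 fold change of 4.05. In all 3 genes unshaded replicate 3 was the highest unshaded and shaded replicate 3 the lowest shaded library. The second LHCA2 set, on chromosome 5 by name, stayed below 4 FPKM in every library. Of it, 5AG0846500 and 5DG0963350 rose by 2.14 and 1.65 on the log2 scale, and 5CG0887680, at 0.404, 1.86 and 2.21 FPKM in shaded grains, passed in the fit over all genes (limma adjusted p = 0.0263).

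LHCA3 was low and less even than the other dimer proteins. Its 3 genes summed to 0.309, 1.26 and 0.332 FPKM in unshaded and to 14.6, 14.8 and 6.93 FPKM in shaded libraries. The ratio was 19.1 with all libraries and 37.9 without unshaded replicate 2, which stood apart in this type. The gene behind it was 6DG1186260, at 0.0370, 0.969 and 0.0609 FPKM in unshaded and 5.39, 5.26 and 2.36 FPKM in shaded grains. It rose (log2 fold change 1.98, SE 0.32, limma adjusted p = 0.00118), and its ratio of means was 12.2, or 88.5 without that library. The A gene 6AG1013050, at 6.99, 6.54 and 3.43 FPKM in shaded grains, rose by 2.49 (SE 0.23, limma adjusted p = 8.78e-05). The C gene 6CG1106870 rose by 1.43 (SE 0.23, limma adjusted p = 0.00102), with a ratio of means of 16.4, or 34.2 without unshaded replicate 2.

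The joint LHCA3 loci, 6DG1186270 and 6CG1106880, carry the text of LHCA3 together with that of a SET protein and of the prenyl transferase subunit DHDDS. Their reads may come from more than 1 of these genes. The first was at 0.681, 0.496 and 1.40 FPKM and then at 5.09, 5.00 and 3.96 FPKM, and the second at 0.715, 0.718 and 0.899 FPKM and then at 3.76, 3.67 and 3.18 FPKM. Both rose, by 1.64 and 1.35 on the log2 scale, but their summed ratio of 5.03 was far below that of the LHCA3 genes proper.

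LHCA5, a scarce protein that takes part in linking photosystem I to the chloroplast NDH complex, was low in shaded grains too. Its 3 genes summed to 0.118, 0.214 and 0.241 FPKM and then to 4.59, 4.49 and 2.60 FPKM, a ratio of 20.4. In each gene every shaded value lay above every unshaded one, with the D gene 6DG1177010 at 1.80, 1.65 and 1.11 FPKM, the C gene 6CG1097580 at 1.52, 1.67 and 0.965 FPKM and the A gene 6AG1022790 at 1.28, 1.18 and 0.522 FPKM in shaded grains. All 3 had means under 1 FPKM and passed as higher only in the fit over all genes, with limma adjusted p-values of 0.00116, 0.00106 and 0.00638.

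Set in order of their summed level in shaded grains, the types ran from LHCB1 at 163 ± 25.6 FPKM through LHCA2 at 97.0 ± 11.6, LHCB4 at 90.8 ± 9.57 and LHCA4 at 65.9 ± 6.43 FPKM. LHCB5 at 58.1 ± 7.40, the LHCB1 or LHCB2 genes at 58.0 ± 7.29 and LHCB6 at 52.5 ± 0.571 FPKM came next. LHCA1 at 44.7 ± 3.04, LHCB3 at 17.8 ± 1.70 and LHCA3 at 12.1 ± 4.51 FPKM followed, and the joint LHCA3 loci, LHCA5 and LHCB7 were below 10 FPKM. In most types shaded replicate 3 was the lowest shaded library, so the SDs largely share that source. Within libraries LHCA2 exceeded LHCB4, and LHCA4 exceeded LHCB5, in each of the 3 shaded libraries. LHCB5 and the LHCB1 or LHCB2 genes differed in order between the shaded libraries, as did LHCA5 and LHCB7. Differences between types, copies or gene lists in the ratio of shaded to unshaded grains, here and below, were not tested.

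The LHCB1 family is by far the most copied in the table, and most of its copies were hardly expressed. Of the 52 genes with LHCB1 in their text, alone or joined with LHCB2, 10 reached a mean of 1 FPKM and 42 did not. Of those 42, 38 stayed below 0.3 FPKM in every library, and the highest mean was 0.732 FPKM. Together the 42 genes averaged 0.294 FPKM in unshaded and 5.01 FPKM in shaded grains, which was 4.21%, 13.8% and 8.73% of the family's sum in unshaded and 2.03%, 2.02% and 2.89% in shaded libraries. The most abundant of them was 7AG1222100, at 1.38, 1.60 and 1.33 FPKM in shaded grains. In the fit over all genes, 13 of the 32 LHCB1 genes and 7 of the 20 joined genes rose, shares not far from the 28.4% of all genes.

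Many of the barely expressed copies had neighbouring gene numbers. Taking numbers within 200 of each other as a run, 34 of the 52 genes fell into 12 runs, and only 2 of the 34 reached a mean of 1 FPKM. A further 14 genes had numbers of their own, and 8 of them reached it. The remaining genes carry no chromosome in their name. In a run of 4 genes, 1AG0035770 had a shaded mean of 5.49 FPKM and the next 0.115 FPKM. In a run of 3 genes, 1DG0154870 had 5.12 FPKM and the next 0.0256 FPKM. The median length of the 10 expressed gene models was 1128 bases and that of the 42 others 801 bases. The copies share sequence, and how reads that match several copies were assigned is not given in the sources used here, so levels of single copies are less certain than the sum.

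**Figure D3:**
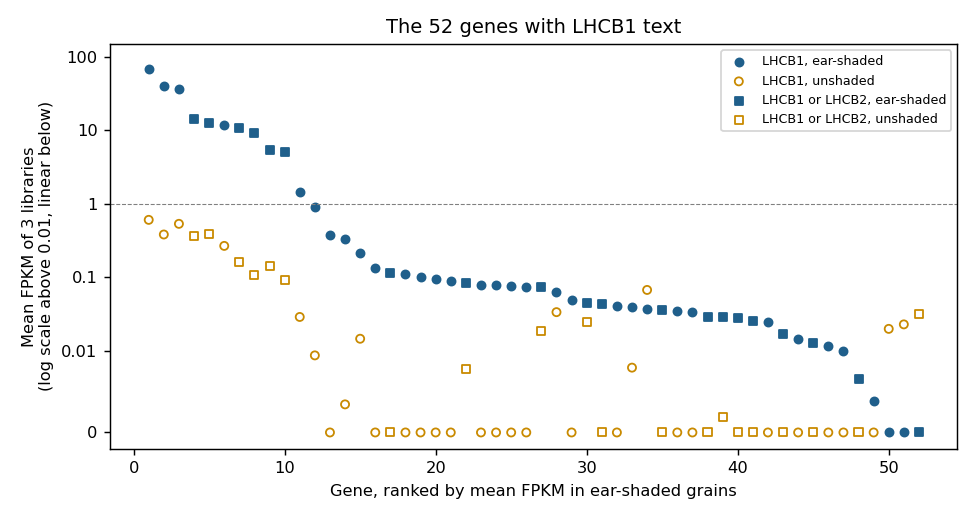
Mean FPKM over 3 libraries of each of the 52 genes with LHCB1 text, ranked by the mean in shaded grains (filled symbols), with the unshaded mean of the same gene as an open symbol. The axis is logarithmic above 0.01 FPKM and linear below, the dashed line marks 1 FPKM, and 10 genes stand out above the rest in shaded grains with all unshaded means under the line.

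The make-up of the antenna transcripts differed between the groups as well as their amount. Shares within a library do not depend on how libraries are scaled, though they must sum to 100% and so are not independent of each other. LHCB1 took 11.7%, 7.43% and 11.5% of the antenna sum in unshaded and 24.6%, 24.8% and 22.8% in shaded libraries. The shaded share lay above every unshaded share in 5 types, which were LHCA1, LHCA2, LHCA4, LHCB1 and the LHCB1 or LHCB2 genes. It lay below in 4 types, which were LHCA5, LHCB5, LHCB7 and the joint LHCA3 loci. The groups overlapped in the other 4, LHCA3, LHCB3, LHCB4 and LHCB6.

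Of the types with a lower share in shaded grains, LHCB7 was the furthest apart, at 18.6%, 12.1% and 12.2% in unshaded and 0.577%, 0.449% and 0.556% in shaded libraries. LHCB5 held 12.2%, 15.6% and 15.3% and then 8.60%, 8.72% and 8.47%, and the joint LHCA3 loci 8.89%, 6.30% and 9.70% and then 1.21%, 1.22% and 1.22%. Unshaded shares rest on a sum of about 20 FPKM and varied more between libraries. The LHCB7 locus MSTRG.1625 alone held 14.8%, 7.78% and 8.75% of that sum, which lowers the unshaded shares of all other types. Which types overlap between the groups can therefore depend on it. With MSTRG.1625 counted under photosystem II, the balance between the photosystems was close in both groups. Leaving it out would raise the unshaded shares of photosystem I, and shares without it were not computed. Photosystem I types (23 genes) held 29.8%, 33.4% and 34.9% of the sum in unshaded and 34.5%, 34.1% and 34.3% in shaded libraries, and the groups overlap. Their sums had ratios of 35.9 for photosystem I and 33.9 for photosystem II types. Without the joint LHCA3 loci, an alternative chosen after seeing the data, the mean share of photosystem I was 6.88 percentage points higher in shaded grains, against 1.59 with them.

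**Figure D4:**
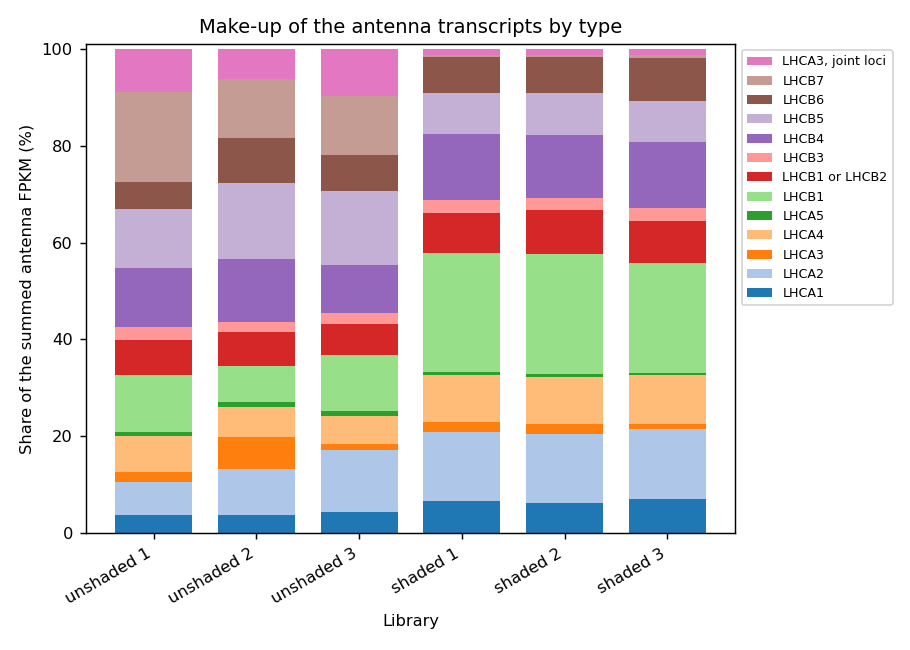
Share of each antenna type in the summed antenna FPKM of each library, in percent, with the types stacked to 100%. LHCB1 takes 7.43% to 11.7% in the unshaded and 22.8% to 24.8% in the shaded libraries, while LHCB7 takes at least 12.1% in the unshaded and under 1% in the shaded ones.

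By subgenome letter, 30 antenna genes are on A, 22 on C and 36 on D, 4 carry no chromosome and 1 is the MSTRG locus. The A genes summed to 3.62, 4.65 and 6.49 FPKM in unshaded and 242, 235 and 193 FPKM in shaded libraries. The C genes summed to 5.49, 6.38 and 8.06 FPKM and then to 235, 228 and 189 FPKM, and the D genes to 4.27, 6.76 and 7.05 FPKM and then to 253, 246 and 202 FPKM. The 3 subgenomes were thus nearly level in shaded grains, with shares of 33.0%, 32.2% and 34.6% of the antenna sum. In unshaded grains the A share was lower, at 23.1%, 24.1% and 27.4%, and the groups did not overlap. The C share was higher in unshaded grains, at 34.9%, 33.1% and 34.0% against 32.1%, 32.2% and 32.3% in shaded ones, again with no overlap, and the D shares overlapped. MSTRG.1625, which has no letter, took 14.8%, 7.78% and 8.75% of the unshaded and 0.236%, 0.189% and 0.238% of the shaded sums. It thus lowers the unshaded shares of A, C and D alike, and the size of these differences depends on it. The ratios were 45.3 for A, 32.8 for C and 38.8 for D. They rest in part on a few loci. The joint LHCA3 loci lie on C and D only, with unshaded means of 0.777 and 0.858 FPKM and ratios of 4.55 and 5.46. The LHCB5 gene 7CG0688910, with a ratio of 7.21, held 1.75 of the 6.64 FPKM of the unshaded C mean. The order of the subgenomes without these loci was not computed, and whether it holds for their antenna genes at large was not tested. In the fit over all genes, 22 of 30 A, 16 of 22 C and 21 of 36 D genes rose, and none of the 4 genes without a chromosome did. Of all genes in that fit 28.4% rose and 12.8% fell. These counts include 10 A, 6 C and 16 D genes with LHCB1 text alone, of which 9, 4 and 15 averaged under 1 FPKM.

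In 6 types exactly 1 gene lies on each subgenome, so the copies can be set against each other directly. The LHCB5 copies stood in another order in the 2 groups, as the C gene 7CG0688910 held 62.7%, 56.2% and 65.1% of the type in unshaded and 21.3%, 21.1% and 23.0% in shaded libraries. The D copy of LHCB5 took 29.6%, 30.3% and 21.7% and then 45.8%, 45.8% and 46.7%, and the A copy 7.70%, 13.5% and 13.2% and then 32.9%, 33.1% and 30.3%. In LHCB4 the A copy held 35.1%, 30.2% and 34.4% and then 37.0%, 36.0% and 37.2%, and the C and D copies overlapped between the groups. In LHCB6 the D copy was slightly higher, at 32.4%, 34.0% and 32.3% and then 34.3%, 36.3% and 35.4%. In LHCB3 the D copy took 22%, 20.6% and 11.4% and then 30.8%, 28.7% and 30.5%. None of the LHCA3 copies left the range of the unshaded libraries, where unshaded replicate 2 gave 76.7% to the D copy. In LHCA5 the A copy held 49.4%, 49.1% and 30% and then 27.8%, 26.3% and 20.1%, and the C copy held 0%, 29.4% and 0% and then 33.1%, 37.1% and 37.2%. The C copy was listed at 0 in 2 of 3 unshaded libraries, so unshaded shares of LHCA5 rest on few values.

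**Figure D5:**
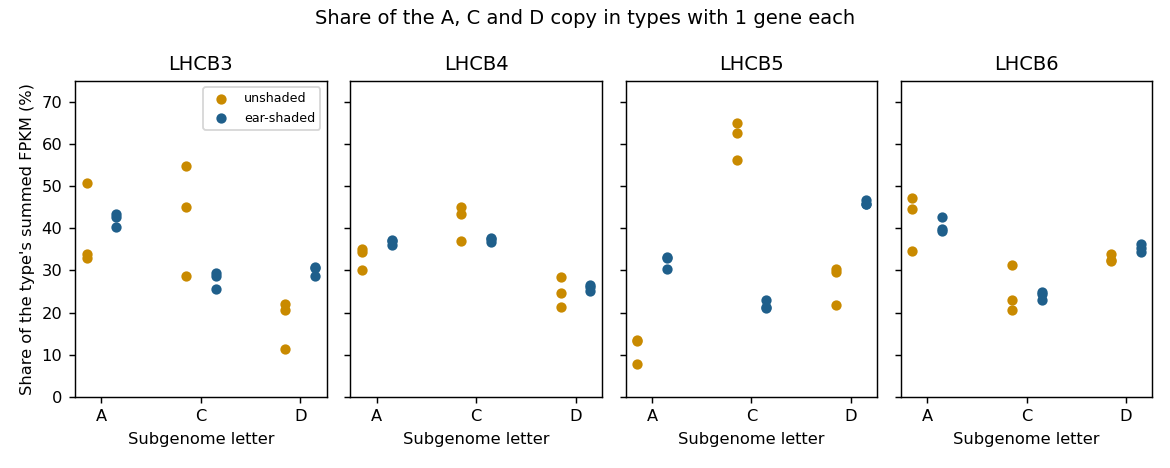
Share of the A, C and D copy in the summed FPKM of LHCB3, LHCB4, LHCB5 and LHCB6, in percent, with 1 point per library, unshaded in orange and shaded in blue. The LHCB5 panel shows the C copy at 56.2% to 65.1% in unshaded and 21.1% to 23.0% in shaded libraries, while the copies of LHCB4 and LHCB6 have similar shares in both groups.

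A further 26 genes outside the antenna pathway carry a chlorophyll-binding description. Of these, 3 encode PsbS, a relative of the antenna proteins that triggers the release of excess light energy as heat. PsbS summed to 0.465, 0.719 and 1.18 FPKM in unshaded and 19.5, 19.5 and 15.7 FPKM in shaded libraries, a ratio of 23.1, and all 3 genes rose. Each PsbS gene was under 1 FPKM in every unshaded library, so the filter left the direction of these calls no choice. The other 23 genes summed to 3.46 ± 0.285 and 5.40 ± 0.187 FPKM, and none exceeded 1.80 FPKM in any library. The single tested gene among them, 6AG1013040, was at 1.04, 0.946 and 1.02 FPKM and then at 1.55, 1.52 and 1.80 FPKM and rose by 0.39 (SE 0.11, limma adjusted p = 0.0154), a call lost with median-of-ratios scaling and with quantile normalization. With these 26 genes added, the summed ratio was 29.4 in place of 34.6.

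The antenna feeds the photosystems and the electron transport chain, whose nucleus-encoded proteins were matched by KEGG types picked after the annotation had been read. The list includes the electron transport proteins petC and petE and 1 locus whose text starts with another protein, RPS6KB, and which did not pass. Of 86 genes, 69 were tested, 67 rose, 0 fell and 2 did not pass, where 42.4% of all genes tested rose and 21.5% fell. Many of these types were low in unshaded grains, such as psaD, whose 3 genes summed to 1.02 ± 0.354 FPKM. Such genes entered the restricted fit through their shaded values, so the count describes the list and supports nothing beyond that. They summed to 50.6, 70.0 and 83.1 FPKM in unshaded and 1998.5, 2006.8 and 1608.4 FPKM in shaded libraries, a ratio of 27.6. Their median log2 fold change in the restricted fit was 3.72, beside 3.35 for the antenna genes, and both medians are subject to that limit. Per library, the antenna sum was 0.310, 0.276 and 0.285 times that of this list in unshaded and 0.366, 0.354 and 0.364 times in shaded grains, so the groups did not overlap in this ratio. Part of that gap comes from the RPS6KB locus, at 5.65, 6.26 and 7.20 FPKM in unshaded and 6.45, 5.57 and 5.91 FPKM in shaded libraries. It weighs on the small unshaded list sums far more than on the shaded ones. Over the whole KEGG photosynthesis pathway, which also holds ferredoxin and plastid-encoded types, 104 of 129 tested genes rose and 16 fell.

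Chlorophyll is needed to fold the antenna proteins, and the genes of its synthesis mostly rose. Of 60 genes, 41 were tested, 39 rose, 0 fell and 2 did not pass, where 42.4% of all genes tested rose and 21.5% fell. Their sum was 79.3 ± 14.0 FPKM in unshaded and 443 ± 52.5 FPKM in shaded grains, a ratio of 5.59. Chlorophyllide a oxygenase, which makes the chlorophyll b that is bound mainly by the antenna, summed to 2.17, 1.79 and 1.63 FPKM and then to 6.72, 6.58 and 5.90 FPKM. Both of its tested genes rose, and its ratio of 3.44 was far below the 34.6 of the antenna sum. Protochlorophyllide reductase (6 genes, all rising) had a ratio of 108, and the cyclase acsF (4 genes, all rising) one of 30.4. The 6 reductase genes together summed to only 1.08 ± 0.325 FPKM in unshaded grains, so their calls carry the limit of the restricted fit.

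The route that carries antenna proteins into the thylakoid membrane was represented by 49 genes, of which 34 were tested, 19 rose, 2 fell and 13 did not pass, where 42.4% of all genes tested rose and 21.5% fell. SRP43, the chloroplast chaperone that binds antenna proteins, summed to 0.448, 0.371 and 0.607 FPKM in unshaded and 5.98, 4.52 and 7.69 FPKM in shaded libraries, and both tested genes rose. For SRP54 10 of 11 tested genes rose, with sums of 58.9 ± 3.51 and 90.0 ± 0.830 FPKM. The text for SRP54, FtsY and the OXA1 or YidC insertases does not separate chloroplast forms from cytosolic or mitochondrial ones. The tested FtsY gene did not pass, and of 20 tested insertase genes 7 rose and 2 fell, a smaller share rising than among all genes tested. With median-of-ratios scaling, where 27.1% of all genes tested rose and 32.1% fell, 10 of 33 tested genes of the list rose and 4 fell, and of the insertase genes 3 rose and 4 fell, while 5 of 10 tested SRP54 genes rose. SRP43 kept both of its calls under the 3 other scalings. Its genes together stayed under 1 FPKM in every unshaded library, however, so the filter left the direction of these calls no choice.

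Among 12 genes of heat release and the xanthophyll cycle, 8 were tested. Of these 5 rose, 1 fell and 2 did not pass, where 42.4% of all genes tested rose and 21.5% fell. With libraries set to the same summed FPKM 6 rose and 0 fell, where 47.6% and 18.5% of all genes tested did. The 3 PsbS genes are among those that rose, and the filter left their direction no choice. Besides PsbS, both tested genes of violaxanthin de-epoxidase rose, with sums of 1.13 ± 0.114 and 5.87 ± 0.375 FPKM. The other 3 tested loci carry a text that joins PsbS with a sterol isomerase. Among 65 genes of light signalling, 27 were tested, of which 17 rose, 4 fell and 6 did not pass, again beside 42.4% and 21.5% of all genes tested. The photoreceptor genes PHYB (4 of 4 tested, or 3 of 4 with median-of-ratios scaling) and CRY1 (3 of 3) rose, as did those of the phytochrome-interacting factor PIF3 (3 of 3). Of 3 tested genes for the light-response factor HY5 1 rose, of 4 for PHYA 3, of 3 for CRY2 2, and of 2 for PIF4 1 rose and 1 fell. With median-of-ratios scaling and with quantile normalization 0 of the 3 CRY2 genes rose. In the whole list 14 of 27 rose and 5 fell with median-of-ratios scaling, where 27.1% and 32.1% of all genes tested did. COP1, which marks light-signalling proteins for breakdown, summed to 15.1, 13.2 and 17.8 FPKM in unshaded and 7.62, 7.31 and 9.49 FPKM in shaded libraries, and 3 of its 5 tested genes fell. No gene text matched early light-induced proteins, GLK or the STN kinases.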

How the data were processed

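Total RNA of peeled grains was extracted with Trizol and primed at random after fragmentation, and libraries were made with an Illumina kit, per the labels' protocols, which also name a PacBio sequencer. The submitters' processing notes name HISAT2 and StringTie. The genome build, the annotation, the strand setting and the handling of reads that match several genes were not given. The deposited table, made by the authors, holds FPKM per gene and library, gene length, and the authors' log2 fold change with its p-value and adjusted p-value. Count models were not used because the values are FPKM, and depth is unknown. Grains were grouped by the treatment label, with 3 libraries a group.

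Testing was done on log2(FPKM + 1) with limma 3.58.1 in R 4.3.3, two-sided and with a mean-variance trend, over the 58283 genes that averaged 1 FPKM or more and, as an alternative, over all 136488. Adjustment followed Benjamini and Hochberg across the genes of each fit, with a threshold of 0.05. The code was tested on simulated data. Sums, shares and ratios are descriptions with no test, and ratios are of group means of FPKM. The members and lists were chosen with earlier results of these data known. List genes were found by KEGG or COG text. The planned words avenin and vicilin had no match in that text.

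Genes are named by a rule, which took per type the up to 3 genes of the highest mean, each tested gene that was lower or did not pass, and the 5 largest and 5 smallest log2 fold changes among those tested. It also allowed up to 2 genes per list, given here as sums by gene name instead. Named outside the rule, after their values were seen, are 5CG0927060, 1AG0004130, 1AG0035770, 1DG0154870, 5AG0844190, 5DG0965600, 5AG0846500, 5CG0887680, 5DG0970580, 2AG0197820, 2DG0350820, 7AG1222100 and 6AG1013040. Alternatives changed the pseudocount, the filter, the scaling (3 kinds), the trend, the replicate block or a minimum fold, left out 1 library at a time, or averaged shaded replicates 1 and 2. No sequence is printed, since no reference was used here. Figures were made with Python 3.11 and matplotlib 3.10.9.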

Additional observations from a re-analysis of the deposited data

How the results depend on the processing

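The summed antenna ratio of 34.6 lay between 31.5 and 38.6 when any 1 library was left out, and was 26.5 after median-of-ratios scaling, which moved the median log2 fold change of all genes from 0.26 to -0.05. The number of antenna genes called higher stayed at 40 or 41 under 2 other pseudocounts, 3 scalings, no trend, a log2 fold change of at least 1, the averaging of shaded replicates 1 and 2 and the loss of any 1 library (lowest 40, highest 41), and 0 were lower except as named next. It was 25 of 25 with a mean of at least 5 FPKM, where fewer genes were tested, and 59 of 93 with no filter. All of these settings but the last kept a filter on the mean. In the main fit 37 of the 42 genes tested had passed it only through their shaded values. Their direction was thus fixed in advance, and the steady count supports nothing beyond these genes. With median-of-ratios scaling and with quantile normalization 1 gene was lower, MSTRG.1625, at -0.49 and -0.51 in place of -0.25, and the cause was not tested. Median-of-ratios scaling also took the shares of all tested genes called higher and lower from 42.4% and 21.5% to 27.1% and 32.1%. The LHCB7 ratio turned from 1.31 to 0.757 with genes of at least 1 FPKM only, which leaves 1 gene. The LHCA3 ratio was 37.9 without unshaded replicate 2, and the share of photosystem I types differed by 6.88 points without the joint LHCA3 loci, an alternative added after seeing the data.

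The labels do not say that equal replicate numbers share a plant or day, and deviations of same-numbered libraries correlated at -0.0523, -0.0461 and -0.147. With the replicate number as a block and the same filter, which fixes most directions, 41 antenna genes were higher and 0 lower. Depth is unknown, so levels below about 0.3 FPKM, as in most LHCB1 copies, carry an unknown counting error.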
